A study of Homo sapiens with 6 samples.

Results

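The nuclear genes of oxidative phosphorylation were examined for MYT1L binding at day 30 in H1, a line of human embryonic stem cells. They are the protein-coding genes of the RefSeq table (GRCh38.p14) on chromosomes 1 to 22 and X whose symbols start with NDUFA, NDUFB, NDUFC, NDUFS or NDUFV and a digit, UQCR, COX4 to COX8 or ATP5, or are SDHA, SDHB, SDHC or SDHD. This gave 87 of 19974 genes: 37 of complex I, 4 of complex II, 9 of complex III, 17 of complex IV and 20 of complex V. The rule used symbols only and no measured value. NDUFA4 and NDUFA4L2 were not analysed here.

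Oxidative phosphorylation takes place in the inner mitochondrial membrane. Complex I passes electrons from NADH to ubiquinone and complex II passes them from succinate. Complex III moves them from ubiquinol to cytochrome c, and complex IV hands them to oxygen. Complexes I, III and IV pump protons, and complex V, the ATP synthase, lets the protons return and makes ATP. Some subunits are encoded by mitochondrial DNA, but most, including all of complex II, are nuclear genes, and neurons depend strongly on the pathway. NRF1 and GABP (also called NRF2, an ETS factor) are well-known nuclear regulators of these genes. MYT1L is a zinc-finger transcription factor of neurons.

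Binding was measured by CUT&RUN, in which an antibody brings a nuclease to a chromatin protein and the released DNA is sequenced. The MYT1L antibody was used for 4 libraries, and IgG, a control that recognises no chromatin protein, for 2. All 6 came from wild-type H1 cells, a single stem cell line, labelled day 30 and passages p10-p60. The series' design text names cortical interneurons made from the stem cells, while the cell type on each sample is embryonic stem cells. Peak lists carry no expression, so the cell type was not checked against its markers. Nothing in the labels says that the libraries came from separate cultures, so the spread between them may be technical.

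The MYT1L libraries differed in depth before any gene was considered. The peak lists hold no read totals, but the lowest background the peak caller used, in fragments expected at a position, could be recovered and was 1.18, 0.421, 1.05 and 0.895 in MYT1L libraries 1 to 4 and 0.329 and 0.190 in the IgG libraries. The lists held 27736, 12203, 18786 and 29892 MYT1L peaks and 919 and 960 IgG peaks on the chromosomes used. At its lowest background MYT1L library 2 had peaks from 5 fragments upward and MYT1L library 1 from 7. The highest background was 6.22 times the lowest, and the part of this gap in the difference between MYT1L and IgG counts was not tested. Below, "fold" is the authors' fold enrichment of a peak over its local background, and "pileup" is the number of fragments over its summit.

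One start region from each complex is shown first, because the results below turn on where MYT1L peaks lie relative to gene starts. The sequences are the 250 bases before the RefSeq start (GRCh38.p14), 5′ to 3′ on the gene's strand. NDUFV2 lies at chr18:9102449-9102698 on the plus strand, SDHA at chr5:218070-218319 (plus), UQCRFS1 at chr19:29213152-29213401 (minus), COX7A2L at chr2:42361218-42361467 (minus) and ATP5PF at chr21:25735055-25735304 (minus). Capitals mark AAGTT, the core bound by MYT1-family zinc fingers, and CCGGAA, the ETS core, each on either strand (so also AACTT and TTCCGG).
NDUFV2: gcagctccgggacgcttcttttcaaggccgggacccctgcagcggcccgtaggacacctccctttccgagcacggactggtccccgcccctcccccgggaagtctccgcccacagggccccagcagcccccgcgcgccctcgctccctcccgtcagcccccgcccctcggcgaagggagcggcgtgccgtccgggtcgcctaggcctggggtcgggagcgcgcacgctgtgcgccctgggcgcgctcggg
SDHA: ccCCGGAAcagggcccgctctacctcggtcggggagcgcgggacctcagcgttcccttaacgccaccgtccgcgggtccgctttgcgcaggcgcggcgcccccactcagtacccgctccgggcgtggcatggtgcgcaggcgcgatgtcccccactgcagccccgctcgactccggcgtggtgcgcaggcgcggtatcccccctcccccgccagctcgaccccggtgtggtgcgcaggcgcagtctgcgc
UQCRFS1: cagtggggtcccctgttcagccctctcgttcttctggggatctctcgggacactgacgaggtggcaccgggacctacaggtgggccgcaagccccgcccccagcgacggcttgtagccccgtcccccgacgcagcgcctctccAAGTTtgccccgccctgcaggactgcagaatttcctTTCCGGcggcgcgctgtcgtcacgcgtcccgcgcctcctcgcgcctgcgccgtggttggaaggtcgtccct
COX7A2L: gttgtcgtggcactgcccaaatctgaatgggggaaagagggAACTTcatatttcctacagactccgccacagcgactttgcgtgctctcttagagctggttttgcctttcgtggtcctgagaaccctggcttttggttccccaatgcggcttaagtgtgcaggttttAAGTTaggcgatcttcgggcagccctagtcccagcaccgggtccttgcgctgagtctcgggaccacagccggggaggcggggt
ATP5PF: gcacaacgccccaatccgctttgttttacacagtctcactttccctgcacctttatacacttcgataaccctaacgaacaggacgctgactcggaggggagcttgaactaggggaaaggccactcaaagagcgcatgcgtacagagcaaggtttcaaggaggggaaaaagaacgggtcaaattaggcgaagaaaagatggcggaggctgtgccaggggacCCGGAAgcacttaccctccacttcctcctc
The NDUFV2 stretch held neither motif, and NDUFV2 had the highest mean fold of the 5 genes. Its summits in MYT1L libraries 1 and 4 lay 57 and 130 bp downstream of the start, outside the stretch. Only the 250 bases before each start were searched, so a motif elsewhere under a peak would not be seen. In the COX7A2L stretch the AAGTT core occurred at both -209 to -205 and -83 to -79, counted back from the start. For UQCRFS1 it lay at -107 to -103, and the ETS core at -71 to -66. The ETS core stood at -248 to -243 of SDHA and at -30 to -25 of ATP5PF.

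The first question was how many of the genes carried MYT1L peaks. A gene was counted for a library when a peak touched its body or the 5 kb on either side. MYT1L libraries 1 to 4 had a peak at 67, 29, 50 and 80 of the 87 genes, a mean of 56.5 ± 22.1 (SD, n = 4). The IgG libraries had one at 2 and 1, a mean of 1.5 ± 0.707 (SD, n = 2). Every MYT1L library thus exceeded both IgG libraries. With 4 libraries against 2 a one-sided exact permutation test cannot go below p = 0.0667, and none was run.

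Set against all protein-coding genes, the share with a peak differed in direction between libraries. In MYT1L library 1 it was 77.0% of the oxidative phosphorylation genes beside 68.2% of all genes, and in library 4 92.0% beside 77.8%. Library 3 gave 57.5% beside 57.4%. Library 2, with the shortest list, gave 33.3% beside 43.1%. The IgG shares were 2.30% beside 1.62% and 1.15% beside 2.9%. So 2 libraries placed these genes above the background, 1 below it and 1 at it.

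**Figure D1:**
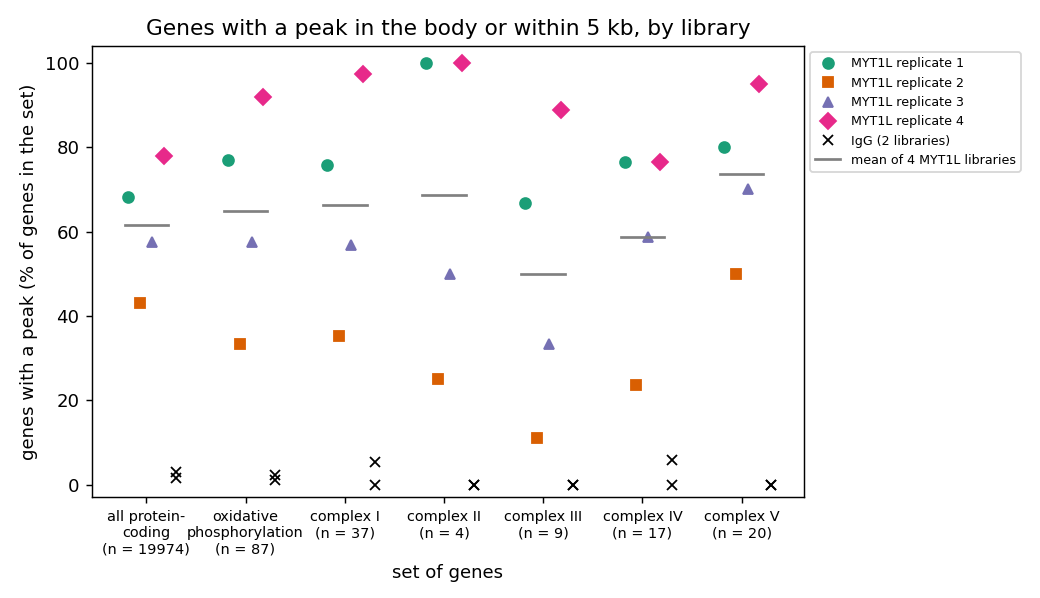
Percent of genes with a peak in the gene body or within 5 kb (vertical axis), for all protein-coding genes, the 87 oxidative phosphorylation genes and complexes I to V (horizontal axis). Each point is 1 library, MYT1L or IgG, and each bar the mean of the 4 MYT1L libraries. MYT1L points of the 87 genes run from 33.3% to 92.0%, a wider span than the 43.1% to 77.8% of all genes, and the IgG points of the 87 genes lie at 2.30% and 1.15%.

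The window of a longer gene covers more bases. The 87 genes had a median length of 9242 bp, beside 24170 bp for all genes. When both sets were limited to the interquartile range of the former, 5350 to 17630 bp, the oxidative phosphorylation genes exceeded them by 19.1, 0.622, 10.9 and 21.8 percentage points in MYT1L libraries 1 to 4. Without this limit the differences were 8.84, -9.80, 0.0366 and 14.2 points.

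Peaks that recurred were considered next. MYT1L peaks that overlapped by at least 1 bp were joined into regions, and a region was called reproducible when at least 3 of the 4 MYT1L libraries had a peak in it and no IgG peak overlapped it. Such a region was found at 43 of the 87 genes, 49.4% (95% Wilson interval 39.2 to 59.7%), beside 48.2% of all protein-coding genes. Among genes within the length range of the 87 the background was 46.2%. In the interquartile range 21 of 43 oxidative phosphorylation genes (48.8%, 95% Wilson interval 34.62 to 63.25%) had one, beside 37.6% of all genes. As a whole, then, the count lay near the background of all genes. In the interquartile range it was higher than the background, but that background of 37.6% lies inside the interval. Intervals cover counting error only, and the genes are not replicates.

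The number of libraries per gene was distributed differently. Only 4 genes had no MYT1L peak, 4.6% beside 15.8% of all genes. A peak in at least 1 MYT1L library was present at 83 of 87 genes, 95.4% beside 84.2%, or 78% of genes in the interquartile range of length. At the other end, 22 genes had a peak in all 4 libraries, 25.3% beside 32.9% of all genes, 30.4% of those within the length range and 22.3% of those in its interquartile range. Peaks in 1, 2 and 3 libraries were seen at 11, 23 and 27 genes, which is 12.6%, 26.4% and 31.0% beside 11.8%, 15.4% and 24.1%. By these shares the classes of 2 and 3 libraries were fuller, and the classes of 0 and 4 emptier, than over all genes. Against genes in the interquartile range of length the class of 4 was slightly fuller.

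**Figure D2:**
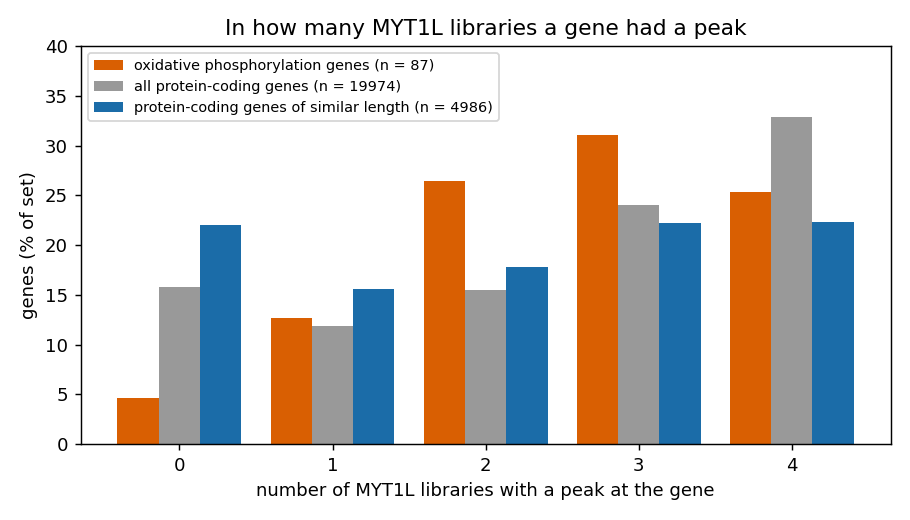
Percent of genes (vertical axis) by the number of MYT1L libraries, 0 to 4, with a peak in the window (horizontal axis), for the 87 oxidative phosphorylation genes, all protein-coding genes and genes of similar length. The 87 genes have 4.6% in the class without a peak, where all genes have 15.8%, and 25.3% in the class of 4 libraries, where all genes have 32.9%.

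MYT1L library 4 stood behind many of these counts. All 11 genes with a peak in a single library had it in library 4, beside 58.8% of the 2362 such genes overall. Among them were the accessory subunits NDUFA3 and NDUFS5 of complex I, UQCR10 and UQCRC2 of complex III, and COX7B of complex IV. NDUFC2 and the readthrough gene NDUFC2-KCTD14, also among the 11, share their strongest peak, with a fold of 11.6. Libraries 1 and 4 together made up 17 of the 23 genes with 2 libraries, 73.9% beside 57.2% over all genes. Libraries 1, 3 and 4 made up 21 of the 27 with 3, 77.8% beside 69.1%. Among the 43 genes with a reproducible region, the strongest region had its highest fold in library 4 in 40 and lacked a library 2 peak in 18. The matching shares over all genes were not counted. Library 4 also had the highest median fold over all genes with a peak, at 7.64. For 19 of the 43 the strongest region had a peak in all 4 libraries, beside 45.4% of all reproducible regions. Without library 2, when 2 of the other 3 libraries were required, 65 of the 87 genes counted (74.7%), beside 63.5% of all genes.

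The height of the peaks was close to that of other genes with a peak. The median fold of a gene's strongest peak was 5.54, 5.85, 5.37 and 8.06 in MYT1L libraries 1 to 4, beside 5.47, 5.77, 5.60 and 7.64 over all genes with a peak. The pileups behind those folds were 8 to 33, 5 to 15, 8 to 21 and 9 to 62 fragments for the oxidative phosphorylation genes.

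**Figure D3:**
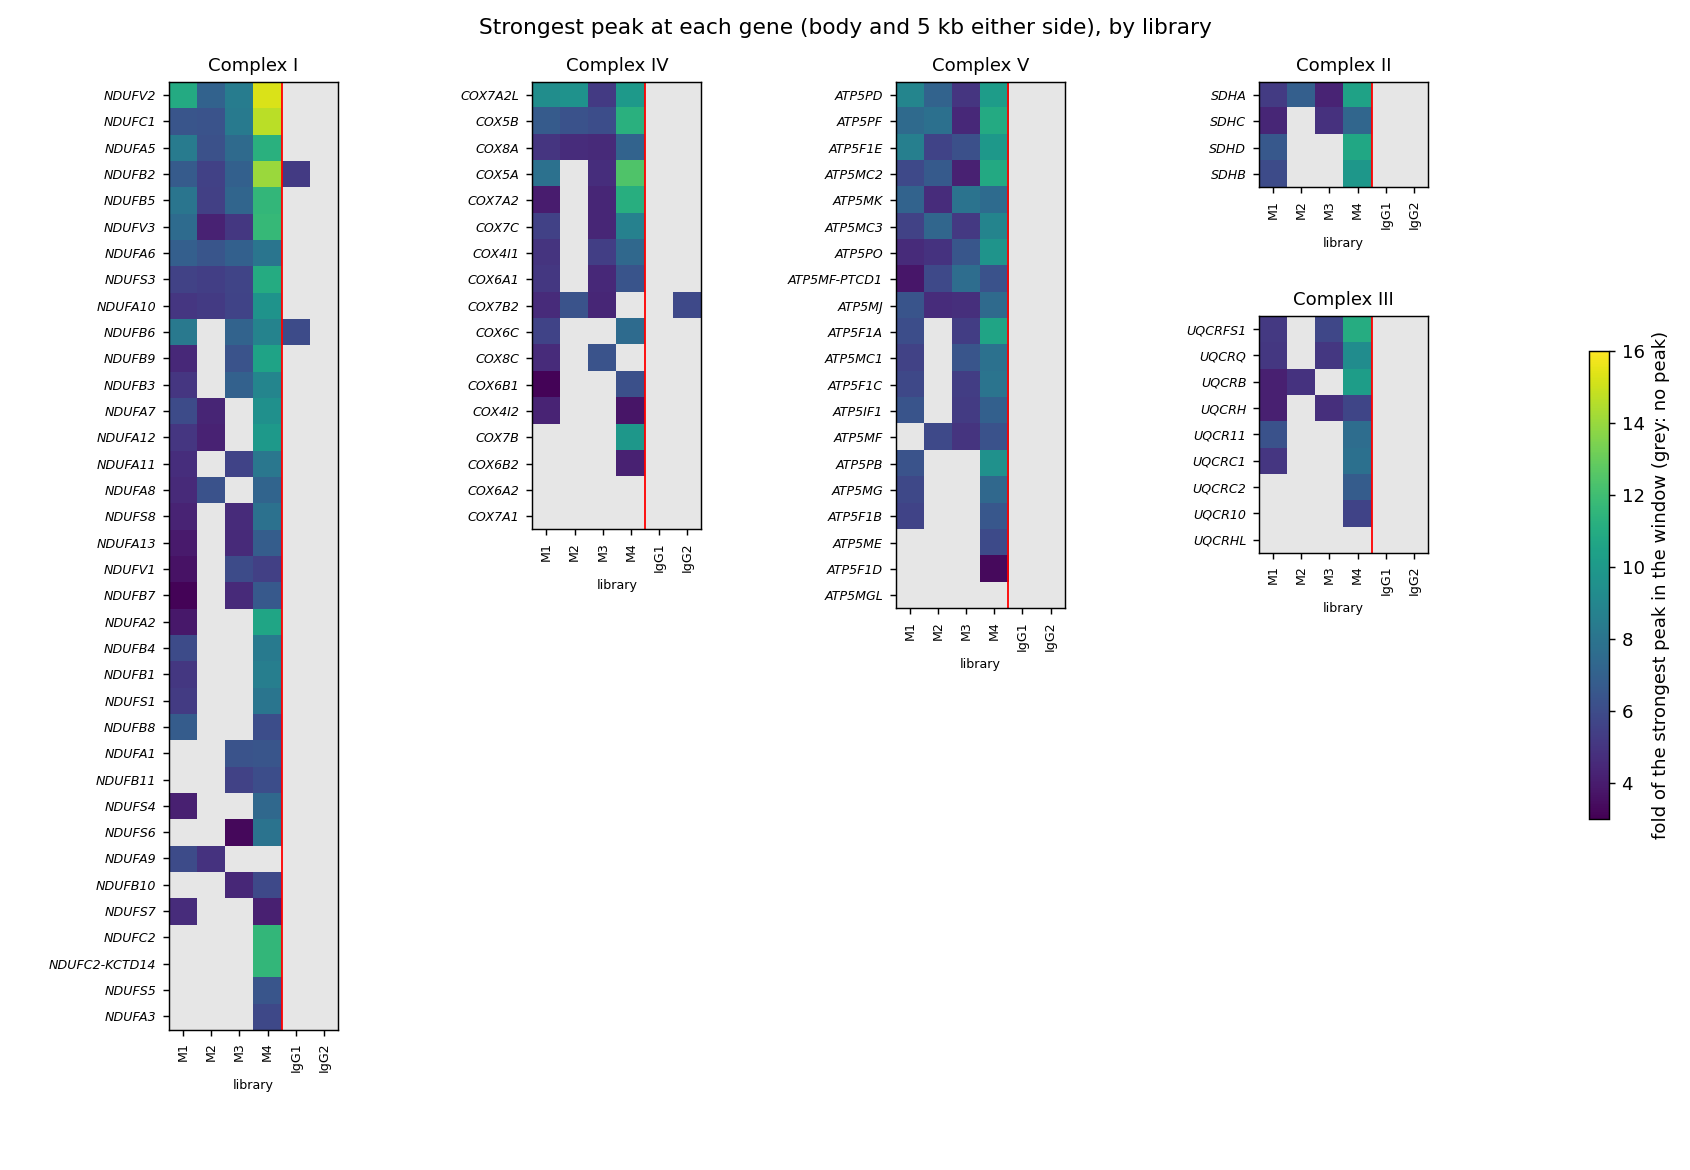
Fold enrichment of the strongest peak in the window (colour) for the genes (vertical, grouped by complex, 1 of complex I not drawn) in the 4 MYT1L and 2 IgG libraries (horizontal). Grey means no peak. Colour is densest in MYT1L library 4 (80 of all 87 genes with a peak) and sparsest among MYT1L libraries in library 2 (29), and at most 2 genes are coloured in an IgG library.

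The complexes were then compared by the share of their genes with a reproducible region. This was 15 of 37 for complex I (40.5%, 95% Wilson interval 26.4 to 56.5%), 2 of 4 for complex II, 4 of 9 for complex III (44.4%, 18.9 to 73.3%), 8 of 17 for complex IV (47.1%, 26.2 to 69.0%) and 14 of 20 for complex V (70.0%, 48.1 to 85.4%). The background of 48.2% lies inside each of these 4 intervals, for complex V at its lower end. No test between complexes was made. Complex V includes ATP5MF and the readthrough gene ATP5MF-PTCD1, which share a region. With readthrough genes left out and shared regions counted once, complex V had 13 genes with a reproducible region.

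The order was also read within each library. Complex V had a larger share of genes with a peak than complex III in 4 of 4 MYT1L libraries, by 23.8 ± 16.5 points (SD, n = 4). It exceeded complex IV in 4 of 4, by 14.9 ± 9.84 points, and complex I in 3 of 4, by 7.53 ± 8.03 points. Without the tissue-restricted paralogs described below, complex IV had 90.9, 27.3, 72.7 and 100% in libraries 1 to 4. Complex V had 80, 50, 70 and 95%, so it was then higher in library 2 only. Complex III was below complex I in 4 of 4 libraries, with a mean difference of -16.2 ± 8.68 points. In libraries 1 and 4 the difference was -9.01 and -8.41 points, while 1 of the 9 genes of complex III makes up 11.1%. The only complex III gene without a peak in library 4 was UQCRHL, the near-identical copy of UQCRH described below. Complexes I and IV were not ordered alike, with IV higher in 2 libraries and lower in 2. The mean shares were 66.2 ± 26.5% for complex I, 68.8 ± 37.5% for II, 50.0 ± 34.5% for III, 58.8 ± 25% for IV and 73.8 ± 18.9% for V. Libraries spread widely within a complex, and each of the 5 had its lowest share in library 2.

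In complex I, the results were led by a core subunit. NDUFV2, which holds an iron-sulfur cluster beside the NADH site, had the highest mean fold among the 43 genes with a reproducible region. Its region, chr18:9102415-9102990, spans the start, and its fold was 11.0, 7.09, 8.45 and 15.3 in MYT1L libraries 1 to 4 (10.4 ± 3.60, SD, n = 4), from pileups of 26, 11, 19 and 46 fragments. Library 4 was highest and library 2 lowest. The stretch printed above, rich in G and C at 76.8%, overlaps this region. A second NDUFV2 region, 34.1 kb from the start and outside the gene, lies at the start of ANKRD12.

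NDUFV1, the flavin-binding partner of NDUFV2 at the NADH site, had folds of 3.65, 5.96 and 5.47 in MYT1L libraries 1, 3 and 4 and no peak in library 2 (chr11:67606627-67607163, at its start). NDUFS1, the largest iron-sulfur subunit, had peaks only in libraries 1 and 4, at 5.28 and 8.06, and so no reproducible region.

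Accessory subunits NDUFC1, NDUFA5 and NDUFB5 held the next highest mean folds of complex I among regions of at least 3 libraries without an IgG peak. NDUFC1 had 6.41, 6.33, 8.29 and 14.6 (8.92 ± 3.93, SD, n = 4) at chr4:139295390-139295882, inside the gene and 6.87 kb from its RefSeq start. It also had a weaker region of 3 libraries at that start, shared with NAA15. NDUFA5 had 8.43, 6.22, 7.52 and 11.2 (8.35 ± 2.13, SD, n = 4), but its region, chr7:123534359-123535179, lies outside the gene at the start of IQUB. NDUFB5 had 8.06, 5.44, 7.22 and 11.6 (8.08 ± 2.59, SD, n = 4) at chr3:179604400-179605060, which overlaps the lower-coordinate end of the gene and also lies at the start of MRPL47. A reproducible region in the window thus need not belong to the gene itself.

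Complex II is the succinate dehydrogenase of the citric acid cycle. SDHA, the flavoprotein subunit that oxidises succinate, had folds of 4.32, 6.94 and 10.5 in MYT1L libraries 1, 2 and 4 (7.25 ± 3.10, SD, n = 3) at chr5:217954-218964. That region covers the SDHA start and lies at the start of CCDC127 as well. SDHC, a membrane anchor, had 4.41, 4.83 and 7.27 in libraries 1, 3 and 4 (5.51 ± 1.54, SD, n = 3). SDHB, the iron-sulfur subunit, had peaks in libraries 1 and 4 only, at 5.95 and 9.88. SDHD, the other anchor, likewise had 6.59 and 10.8 in those libraries. All 4 genes therefore had peaks in libraries 1 and 4, and only SDHA and SDHC had a region with a peak in another.

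In complex III, UQCRFS1, the Rieske iron-sulfur protein, led with folds of 5.17, 5.74 and 11.0 in MYT1L libraries 1, 3 and 4 (7.31 ± 3.23, SD, n = 3), at chr19:29212744-29213400 over its start. UQCRQ, UQCRB and UQCRH, small accessory subunits, had mean folds of 6.52 ± 2.45, 6.43 ± 3.33 and 4.86 ± 0.781 (SD, n = 3 each). The UQCRH region has its summits 1200 bp upstream, nearer the start of LRRC41. UQCRC1, a core protein, had peaks in libraries 1 and 4 alone, at 5.07 and 7.80.

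Complex IV was led by COX7A2L, a COX7A-family protein known from respiratory supercomplexes. Its folds were 9.36, 9.62, 5.22 and 9.98 in MYT1L libraries 1 to 4 (8.54 ± 2.23, SD, n = 4), from pileups of 24, 15, 11 and 34, at chr2:42360819-42361708. Library 3 was the low one here and the other libraries lay close together. COX5A, a subunit on the matrix side, had 7.86, 4.68 and 12.4 in libraries 1, 3 and 4 (8.31 ± 3.88, SD, n = 3). COX5B, also on the matrix side, had 6.74, 6.26, 6.07 and 11.2 (7.57 ± 2.46, SD, n = 4) from 15, 9, 13 and 32 fragments. Libraries 1 to 3 lay close together for COX5B and library 4 stood apart.

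In complex V, all 3 genes of the c ring, the rotor that protons turn, had a reproducible region, beside 48.2% of all genes. ATP5MC1, ATP5MC2 and ATP5MC3 had mean folds of 6.61 ± 1.14 (SD, n = 3), 6.92 ± 2.86 (SD, n = 4) and 6.72 ± 1.71 (SD, n = 4). Of the peripheral stalk, which holds the catalytic head still, 3 of 4 genes had one, a number too small to set against that share. ATP5PF, a stalk subunit, had 7.48, 7.78, 4.48 and 11.0 (7.67 ± 2.65, SD, n = 4) from pileups of 22, 15, 11 and 48, at chr21:25734847-25735954. The median position of its summits was -445 bp from the start. The region also lies within 500 bp of the start of GABPA, which encodes the DNA-binding subunit of GABP. ATP5PD, another stalk subunit, had 8.91, 6.17, 5.0 and 10.2 (7.57 ± 2.40, SD, n = 4).

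Of the catalytic F1 head, 3 of 5 genes had a reproducible region, beside 48.2% of all genes. ATP5F1E, its smallest subunit, had 8.64, 5.59, 6.17 and 9.91 (7.58 ± 2.04, SD, n = 4) at its start. ATP5F1A, the alpha subunit, had 6.05, 5.34 and 10.6 in MYT1L libraries 1, 3 and 4 (7.33 ± 2.84, SD, n = 3) in a region shared with the start of HAUS1. ATP5F1B, the catalytic beta subunit, had peaks in libraries 1 and 4 alone, at 5.64 and 6.54. ATP5IF1, which inhibits the enzyme when it runs backwards, had 6.37, 5.27 and 6.98 in libraries 1, 3 and 4 (6.21 ± 0.868, SD, n = 3). So the alpha and beta subunits of the same head fell on different sides of the 3-library rule.

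Several subunits exist as a widely expressed gene and a paralog whose expression is restricted to certain tissues. UQCRHL, a single-exon copy of UQCRH, was grouped with these restricted paralogs, although its expression was not checked. The 7 restricted genes COX4I2, COX6A2, COX6B2, COX7A1, COX7B2, COX8C and UQCRHL had 0 reproducible regions, which allows a share of up to 35.4% (upper 95% Wilson bound). With a window of 10 kb COX6A2 and COX6B2 counted, 2 of 7, and with at least 2 libraries COX8C did, 1 of 7. Their partners COX4I1, COX6A1, COX6B1, COX7A2, COX7B, COX8A and UQCRH had one in 5 of 7 (71.4%), beside 48.2% of all genes. A peak in any MYT1L library was found at 4 of the 7 restricted genes and at all 7 partners. Their median lengths were 1526 bp and 7909 bp, and the part of length in this contrast was not tested. Without the restricted genes complex IV had 8 of 11 (72.7%), beside 70.0% for complex V.

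The single pairs showed how the contrast arose. COX4I1 had folds of 4.97, 5.43 and 7.38 in MYT1L libraries 1, 3 and 4, while COX4I2, the lung-type form, had 4.28 in library 1 and 3.75 in library 4 at separate sites. COX6A1 had 5.09, 4.48 and 6.37 in libraries 1, 3 and 4, and COX6A2, the heart and muscle form, had no peak. COX7A2 had 4.01, 4.39 and 11.2 in those libraries, in a region inside the gene 6.59 kb from its RefSeq start, and COX7A1, the heart and muscle form, had no peak. COX8A had 5.0, 4.67, 4.55 and 7.12 in libraries 1 to 4. COX8C, a testis form, had 4.58 and 6.34 in libraries 1 and 3 at 1 region, its start.

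The remaining pairs were mixed. COX6B1 had 3.13 and 6.16 in libraries 1 and 4, short of 3 libraries, and COX6B2 had 4.20 in library 4. COX7B had a peak in library 4 alone, at 9.87 and not at its own start, and COX7B2 had 4.58, 6.33 and 4.39 in libraries 1, 2 and 3, each at a different site. UQCRH had the region near LRRC41 described above, and UQCRHL, a single-exon copy of 276 bp, had no peak. Because UQCRHL and UQCRH are near-identical copies, fragments from either may have been assigned uncertainly. The fourth gene without any MYT1L peak was ATP5MGL of complex V, beside UQCRHL, COX6A2 and COX7A1.

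**Figure D4:**
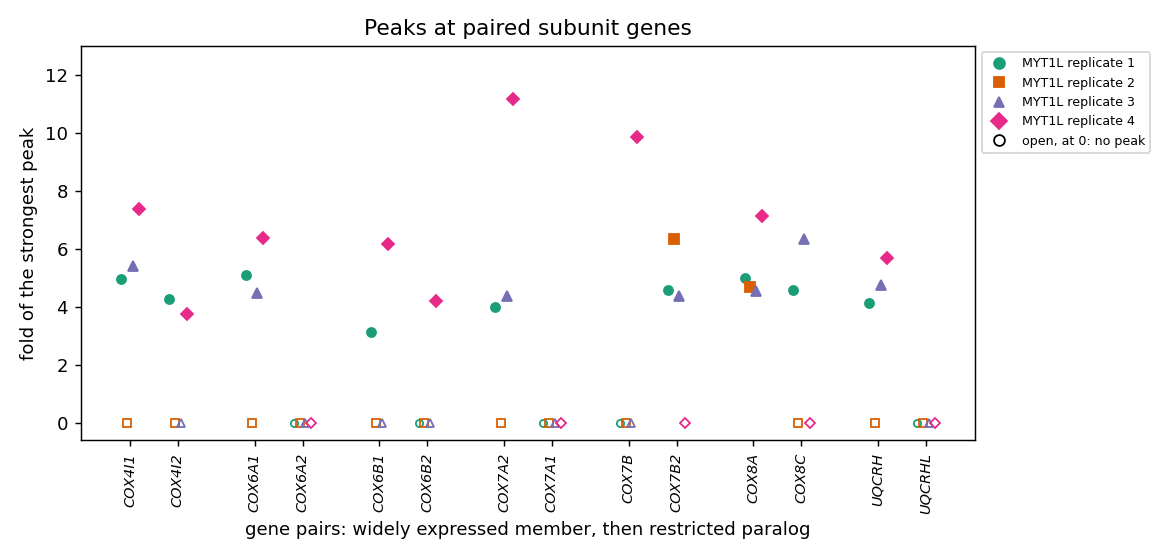
Fold enrichment of the strongest peak in each library (vertical axis) for widely expressed subunits and their restricted paralogs (horizontal axis, pair by pair). Each point with a fold is 1 library with a peak, and a library without a peak has no fold. COX6A2, COX7A1 and UQCRHL had no peak in any library, while their partners COX6A1, COX7A2 and UQCRH have folds from 3 MYT1L libraries each.

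The COX6A pair is shown by sequence because 1 gene had a reproducible region at its start and the other had no peak at all. COX6A1 is at chr12:120437863-120438112 (plus strand) and COX6A2 at chr16:31428361-31428610 (minus), with the same build, length and capitals as above.
COX6A1: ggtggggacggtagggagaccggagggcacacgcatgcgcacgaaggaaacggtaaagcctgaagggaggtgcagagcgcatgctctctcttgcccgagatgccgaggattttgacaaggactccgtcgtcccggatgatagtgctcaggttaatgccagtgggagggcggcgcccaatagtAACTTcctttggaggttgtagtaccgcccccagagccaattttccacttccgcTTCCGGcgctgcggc
COX6A2: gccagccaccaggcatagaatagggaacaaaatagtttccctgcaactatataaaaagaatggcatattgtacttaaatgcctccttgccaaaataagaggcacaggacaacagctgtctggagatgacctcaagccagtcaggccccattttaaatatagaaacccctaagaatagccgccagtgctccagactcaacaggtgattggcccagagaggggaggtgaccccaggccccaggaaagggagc
The COX6A1 stretch held the AAGTT core at -68 to -64 and the ETS core at -15 to -10, both on the opposite strand. In COX6A2 neither motif was found. Their shares of G and C were 60% and 49.2%.

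Position relative to the start was taken for the 70 of the 87 genes with a RefSeq start in the table, using 1 start per gene. The start used is not always the outer end of the gene, and any other start of a gene was not considered. At COX7A2L, for example, the median summit lay near the start used but 7558 bp from the nearer end of the gene. A reproducible region within 500 bp of the start was present at 33 of 70, 47.1% beside 39.6% of 15812 genes. By complex it was 11 of 32 for I (34.4%), 1 of 3 for II, 3 of 7 for III (42.9%), 7 of 14 for IV (50.0%) and 11 of 14 for V (78.6%). Complex V had the largest share at starts, as it had in the whole window when the restricted paralogs were counted in complex IV.

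Library by library, a peak lay within 500 bp of the start in 65.7% of the 70 genes in MYT1L library 1, beside 48.9% of all genes. The values were 28.6% beside 29.3% in library 2, 47.1% beside 42.2% in library 3 and 87.1% beside 64.5% in library 4. IgG library 1 had 1.43% beside 0.677%, and IgG library 2 had 0 of 70, which allows up to 5.20% (upper 95% Wilson bound), beside 1.86%. Starts with a peak in no MYT1L library numbered 6, beside 32.4% of all genes, and 5 of the 6 belonged to complex IV and 1 to complex I. Starts with a peak in all 4 numbered 14, beside 21.6%.

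Across the 43 genes there were 48 gene and region pairs in 47 distinct regions, since ATP5MF and the readthrough gene ATP5MF-PTCD1 share 1. Of the 40 pairs with a known start, 33 (82.5%) included that start or lay within 500 bp of it. This share was not counted for all genes or for genes of similar length, so it has no background here. The 87 genes are short, with a median of 9242 bp beside 24170 bp. The median summit was 57.3 bp downstream of the start, with quartiles at -104 and 121 bp, and the median distance without sign was 124 bp. Summits lay within 200 bp of the start in 25 pairs. The median of the own-start summits was -30, -14, -97 and 77 bp in MYT1L libraries 1 to 4, and within a region the summits of different libraries spanned a median of 259 bp. The summit therefore marks the region only roughly and does not separate upstream from downstream of the start.

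**Figure D5:**
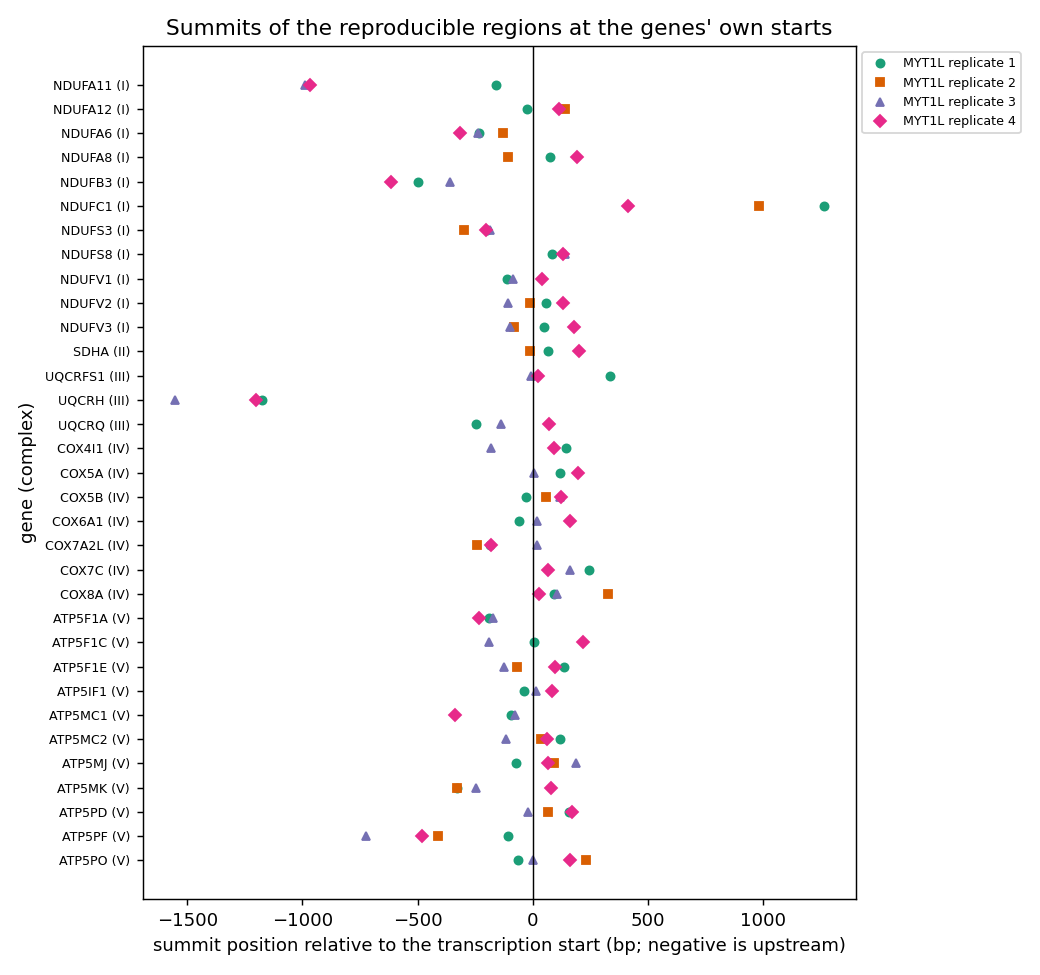
Distance of peak summits from the gene's own RefSeq start in bp (horizontal axis, negative is upstream) for the 33 genes with a reproducible region at the start (vertical axis, by complex). Each point is 1 MYT1L library, and points can cover each other. Most points lie within 200 bp of the start, and UQCRH lies far upstream with a median of -1200 bp.

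The regions themselves were of ordinary size. Their median width was 747 bp, beside 796 bp for the 11020 reproducible regions of the genome without an IgG peak. Their median mean fold was 6.52, beside 6.29 for all reproducible regions, 6.70 for the 5582 at a protein-coding start and 5.82 for those elsewhere. The members' mean folds ran from 4.66 to 10.4.

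Many of these starts were shared with a neighbouring gene. Of the 33 regions at an own start, 12 (36.4%) also lay within 500 bp of another protein-coding start, beside 21.8% of the 6264 such genes overall. The pairs were SDHA with CCDC127, ATP5PF with GABPA, NDUFS3 with KBTBD4, NDUFA11 with VMAC, NDUFA8 with MORN5, NDUFC1 with NAA15, UQCRQ with GDF9, UQCRH with LRRC41, COX4I1 with EMC8, ATP5F1A with HAUS1, ATP5MK with PDCD11 and ATP5F1C with KIN. A peak at such a start cannot be assigned to either gene from its position. Away from the start used for the gene lay 7 pairs, and other starts of these genes were not considered. The farthest within its own gene was in NDUFA10, an accessory subunit of complex I, 95.3 kb from the start, and the NDUFA5 region lay 66.7 kb from its start.

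IgG peaks fell at 3 of the 87 genes, beside 4.17% of all genes. At NDUFB2, an accessory subunit of complex I, IgG library 1 had a peak at chr7:140696719-140697099 with a fold of 5.23 from 7 fragments, and it overlapped MYT1L peaks of all 4 libraries. Their folds were 6.74, 5.51, 6.99 and 14.1, from 25, 9, 21 and 62 fragments. NDUFB2 was the only gene of the 87 whose reproducible region was set aside for an IgG peak. At NDUFB6, also of complex I, the IgG library 1 peak (fold 5.97) overlapped a peak of MYT1L library 1 alone. At COX7B2 the IgG library 2 peak (fold 5.88) overlapped no MYT1L peak.

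Sequence at the starts was searched for 4 motifs in the 250 bases before the start, on both strands. AAGTT, the MYT1-family core, occurred in 20 of 70 stretches, 28.6% beside 26.4% of 15812. With and without a reproducible region at the start it occurred in 30.3% (10 of 33) and 27.0% (10 of 37) of the oxidative phosphorylation genes. Over all genes the shares were 19.6% with and 30.9% without. The longer AAAGTTT, which contains AAGTT, was in 0 of 70, which allows up to 5.20% by the same bound, beside 3.24%. Over all 70 stretches the core was thus about as frequent as elsewhere. Among starts with a reproducible region its share was higher in these genes, 30.3% beside 19.6%, a difference that was not tested. Bases downstream of the start were not searched.

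The regulators' motifs showed another picture. CCGGAA, the ETS core, occurred in 27 of 70 stretches, 38.6% beside 19.3% of all. It was in 42.4% of stretches with a reproducible region and in 35.1% without, while over all genes the shares were 27.3% and 14.1%. By complex it was in 7 of 32 for I, 3 of 3 for II, 4 of 7 for III, 7 of 14 for IV and 6 of 14 for V. For NRF1 only the exact sequence GCGCA followed directly by its reverse complement TGCGC was searched. This sequence was in 3 of 70 (4.29%), beside 1.49%, at NDUFB4, SDHD and ATP5F1C. Other forms of an NRF1 site were not searched, so a stretch outside these 3 may still hold one. The share of G and C was 60.8% at the median, beside 62.4% for all. A match is only the presence of these letters, and no occupancy of GABP or NRF1 was measured.

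Genes outside the complexes that serve the same pathway were counted in the same way. Assembly factors, which build the complexes but are not part of them, had a reproducible region in 37 of 49 (75.5%, 95% Wilson interval 61.9 to 85.4%), beside 48.2% of all genes, and all 49 had a peak in at least 1 MYT1L library. By complex the counts were 10 of 14 for I, 4 of 4 for II, 4 of 6 for III, 16 of 22 for IV and 3 of 3 for V. Their median length was 16610 bp, longer than the 9242 bp of the subunits, and the part of length was not tested. In complex II, all of SDHAF1, SDHAF2, SDHAF3 and SDHAF4 counted beside 2 of the 4 subunits.

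Electron carriers, ubiquinone synthesis enzymes and other subunits had a reproducible region in 8 of 12, beside 48.2% of all genes. CYCS, cytochrome c, had peaks in 4 libraries and counted, whereas CYC1, cytochrome c1 of complex III, and NDUFAB1, the acyl carrier subunit of complex I, had peaks in 2 and did not. Of 13 nuclear regulators 9 counted, beside the same 48.2%. NRF1, GABPA, ESRRA, PPARGC1B, PPRC1 and the mitochondrial transcription factors TFAM, TFB1M and TFB2M had peaks in all 4 libraries, and the coactivator PPARGC1A in 3. GABPB1, POLRMT and TEFM had peaks in 2. YY1 had peaks in 4 libraries but also an IgG peak at the region, and was not counted.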

How the data were processed

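The 6 libraries each had 1 peak list, with no header, naming 1 sample per list. Peaks were called with MACS2 on hg38, per the submitters' processing notes; the aligner, control library and threshold are not given in the sources used here. For each peak the authors deposited a fold enrichment (a ratio over local background), a −log10 p and a −log10 q, and a score. The deposited score equals 10 times the −log10 q, truncated, in 100% of peaks. The number of per-sample columns not used was 0, and read totals are not in the lists.

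From these values the pileup and background of each peak were solved with the formulas of MACS2, and whole pileups came out for at least 99.95% of peaks with a −log10 p up to 200 in each library (tolerance 0.0005). Peaks on chromosomes 1 to 22 and X were joined by an overlap of at least 1 bp and matched to RefSeq genes (GRCh38.p14) with a window of 5 kb in Python 3.11.15 (pandas 2.3.3). Repeating the overlaps with bedtools 2.31.1 gave 0 differences, and the code was tested on simulated data. No peak was identical between libraries. Groups and replicate numbers follow the sample titles. In the MYT1L lists the sample number within each peak's name is 1 higher than in the title, so a replicate number may not be the one used at the bench.

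No test between groups, complexes or lists was run: the genes and lists were chosen with earlier results of these data known, and 4 libraries against 2 cannot go below an exact one-sided p of 0.0667. Named genes were, in each complex, up to 4 with the highest mean fold of a reproducible region, all SDH genes, 9 set subunits, the paralog pairs, genes with an IgG peak and genes without a MYT1L peak. Other genes are named only to complete a count or a list, and were chosen after their values were seen. Alternatives changed the peak threshold, window, overlap, number of libraries, IgG rule and background, and left out each library. Sets of 4 values were screened for a single distant value with Dixon's criterion. The values of 1 complex I gene are not reported here, although it is included in the counts.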

Additional observations from a re-analysis of the deposited data

Results flagged for a closer look

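Among the named genes with a region in all 4 MYT1L libraries, 2 sets of 4 folds had 1 value far from the others. For COX5B the gap from MYT1L library 4 (11.2) to the next library was 0.869 of the whole range, and for COX7A2L the gap from library 3 (5.22) to the next was 0.871, both above Dixon's 95% critical value for 4 samples. Chance marks about 1 in 20 groups, and 16 sets of 4 values, folds or gene counts, were examined.

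Peaks on the mitochondrial genome, which encodes the remaining subunits, were in no comparison above. The MYT1L lists held 9, 9, 7 and 8 of them, covering 4752, 4035, 4358 and 4497 bp, and the IgG lists 6 and 7, covering 2568 and 2493 bp. The lowest MYT1L library, at 4035 bp, thus covered more than either IgG library. The highest folds were 2.39, 3.0, 1.95 and 2.93 for MYT1L and 1.91 and 2.41 for IgG. The MYT1L lists also had the higher background counts given above, and their part in this difference was not tested.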

How the results depend on the processing

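The 43 genes with a reproducible region became 24 with a −log10 q of at least 5, 27 with an equal number of top peaks per library, 66 with at least 2 libraries, 20 with all 4 and 65 without MYT1L library 2; the other 11 of 16 alternatives stayed within 1.5 times. Leaving out each library gave 43 to 65. For the q limit, equal top peaks, at least 2 libraries and all 4 libraries, complex I (15) gave 9, 9, 28 and 8, complex II (2) gave 0, 0, 4 and 0, complex III gave 2 with the q limit, 1 with equal top peaks and 0 in all 4 libraries, complex IV gave 3, 3 and 3 for those settings, and complex V (14) gave 10, 14, 17 and 9, of which only the last was past 1.5 times. Joining peaks by summits within 200 bp gave 1 for complex II, 1 for complex III and 11 for complex V. Leaving out libraries gave 15 to 27 for complex I, 2 to 4 for II, 4 to 6 for III, 8 to 11 for IV and 14 to 17 for V. The 22 genes with a peak in all 4 libraries became 5 with the q limit and 22 to 43 without a library. The median distance without sign became 134 to 201.2 bp, the last without library 2 or 3. The difference from all genes, 1.27 points, ran from -3.12 to 11.2 and was above 0 in 14 of 18 alternatives. The gap between mean MYT1L and IgG counts, 55.0 genes, ran from 42.5 to 64.2. With 10 kb windows 50 genes counted and with 1 kb 42. Counting NDUFA4 and NDUFA4L2 with complex IV was not run, as they were not analysed here. In alternatives added after seeing the data, the 7 restricted paralogs gave 2 with 10 kb windows, 1 with at least 2 libraries and 1 without MYT1L library 2, and their 7 partners 5, 6 and 6. No paired analysis was possible because the difference between MYT1L and IgG comes from no test; differences between complexes were taken within libraries. Peaks of under 5 to 7 fragments could not be called in the MYT1L libraries, so a gene without a peak had no binding detectable at this depth.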
